A study of Mus musculus with 192 samples.

Results

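The 10 genes described here, globin-switch repressors and erythroid corepressors, were followed across single erythroid progenitors of the mouse fetal liver. All are protein-coding; they are Bcl11a, Sox6, Zbtb7a, Gfi1b, Kdm1a, Rcor1, Cbfa2t3, Chd4, Mbd2 and Hdac2. They were taken by gene symbol from the 49466 genes of the count table. No measured value entered this rule, but earlier results of these data were known when it was set. The cells came from livers of C57/Bl6J mouse embryos at embryonic day 14.5 and were depleted, among others, of cells with Ter119, Sca-1, CD41 and mature myeloid or lymphoid antigens. Antibodies to CD117, CD71 and CD24 then guided the sorting of single cells into wells for full-length SmartSeq2 libraries. Colony-forming units-erythroid (CFU-E) filled 1 plate and 1 sequencing lane, and burst-forming units-erythroid (BFU-E), their less mature precursors, filled another plate and lane. The labels name no animal or pool and give no treatment or genotype, so each cell type is 1 sample, no test was made between them, and plate, lane and cell type cannot be told apart.

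Red cells first made in the embryo use embryonic globins, while the definitive red cells that arise in the fetal liver use adult-type globins. Repressors that bind DNA at the globin loci, among them BCL11A, SOX6 and ZBTB7A, keep the embryonic and, in human cells, the fetal globin genes silent. GFI1B, KDM1A (LSD1), RCOR1 (CoREST), CBFA2T3 (ETO2) and the NuRD proteins CHD4, MBD2 and HDAC2 are chromatin corepressors or their recruiters, and several of them are also needed for erythroid maturation itself.

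The median well held 999396 counts on the CFU-E plate (95 wells, 5825 to 2992101) and 1099619.5 on the BFU-E plate (96 wells, 6473 to 3864040). The 89 CFU-E and 92 BFU-E cells that reached 100000 counts and 2000 genes were each thinned to 100000 counts, so that 1 count is 10 counts per 1000000 (CPM). On the BFU-E plate, clustering without the 10 genes and their partners separated 55 erythroid-like cells, led by Ermap, Mfsd2b and Gata1, from 37 granulocyte-monocyte-like cells, led by Cd33, Ncf1 and Csf1r. The summed level of 10 stem and multipotent progenitor markers had a median of 0 CPM in CFU-E, 140 CPM in erythroid-like and 2320 CPM in granulocyte-monocyte-like cells. The 13 lymphoid markers averaged a summed 199 CPM in CFU-E, 19.1 CPM in erythroid-like and 520.5 CPM in granulocyte-monocyte-like cells, where Ighm was among the 10 leading genes. The CFU-E plate held no separated clusters. The summed CPM of 16 granulocyte-monocyte markers averaged 5.84 in CFU-E, 312 in erythroid-like and 5733 in granulocyte-monocyte-like BFU-E cells, and Mpo and Elane were at 0 in CFU-E cells. All 18 erythroid markers had counts in CFU-E and in erythroid-like BFU-E cells, with medians of 17 and 11 markers per cell. Within the CFU-E plate, 3 cells carried 10 of 13 lymphoid markers each and had no count of Gata1. Values are therefore given against the whole BFU-E plate and against its erythroid-like cells, and without the 3 lymphoid-marker cells where they matter. The 95% intervals in parentheses are exact and cover counting error only; since reads were amplified by PCR and carry no molecular identifier, they do not count independent molecules.

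Sox6 and Cbfa2t3 moved furthest and in opposite directions. Sox6 stood at 45.3 CPM in CFU-E cells, 23.1-fold above the BFU-E plate, and Cbfa2t3 stood at 13.1 CPM, 4.26-fold below it. Bcl11a had a count in nearly every cell of both plates. Gfi1b followed the erythroid cells, with counts in 86 of 89 CFU-E, 45 of 55 erythroid-like and 13 of 37 granulocyte-monocyte-like BFU-E cells. Set against the BFU-E plate, CFU-E cells had 2 of the 10 genes higher by 2-fold or more (Sox6 and Gfi1b) and 3 lower by 2-fold or more (Cbfa2t3, Chd4 and Kdm1a). Of all 9440 measured genes (a mean of at least 5 CPM), 6.10% were higher and 32.5% were lower by this rule. The 3 lower genes of 10 are thus close to the share of all genes, and 2 higher of 10 is a small count above its share.

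Against erythroid-like BFU-E cells alone, 1 gene passed 2-fold on the higher side in CFU-E cells (Sox6) and 1 on the lower side (Cbfa2t3). The background was 5.84% higher and 29.9% lower of 9181 genes. The median log2 fold of the 10 genes was −0.16 for CFU-E over the BFU-E plate and −0.27 for CFU-E over erythroid-like cells, where log2 folds are of CPM + 1. Over all measured genes these medians were −0.57 and −0.54, so most genes read lower in CFU-E cells at equal total counts. TMM scaling, which centres most genes near 0, brought the first of these medians over all genes to 0.00, with 14.6% of genes higher and 17.7% lower. It left 3 of the 10 genes at least 2-fold higher (Sox6, Gfi1b and Zbtb7a) and 1 lower (Cbfa2t3) against the BFU-E plate.

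**Figure D1:**
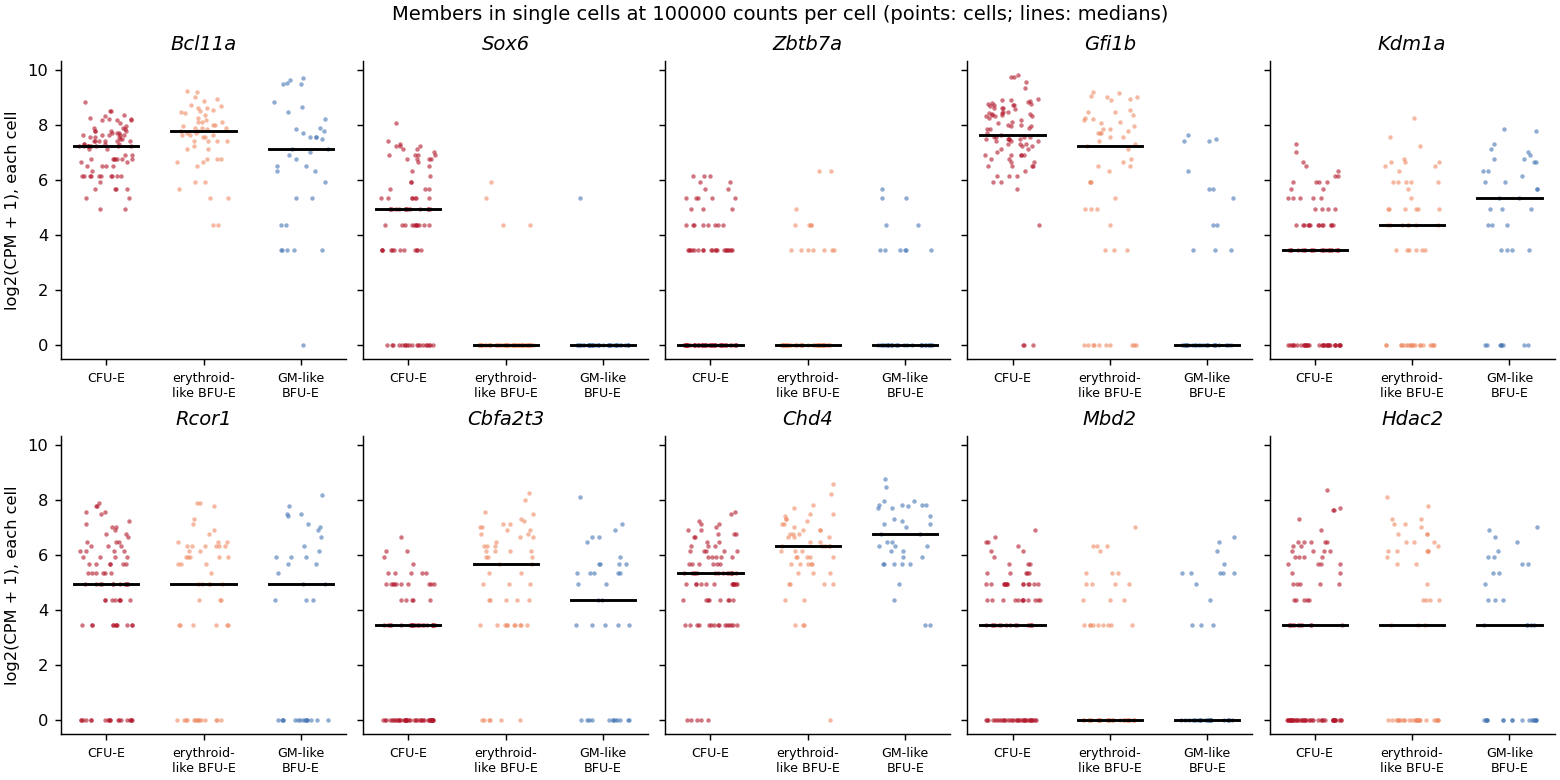
Each point is 1 cell at 100000 counts, with log2(CPM + 1) on the vertical axis and CFU-E (89), erythroid-like BFU-E (55) and granulocyte-monocyte-like BFU-E (37, GM-like) cells side by side; black lines are medians. Sox6 has points above 0 mainly in CFU-E cells, Bcl11a is above 0 in nearly all cells, and Cbfa2t3 sits lower in CFU-E than in erythroid-like BFU-E cells.

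Promoter sequences are shown for Sox6 and Cbfa2t3, which differed most between CFU-E and BFU-E cells, and for Gfi1b, which differed most between the 2 clusters of BFU-E cells. Where a gene has several start sites, the window with the most GATA words was picked. They are from RefSeq (GRCm38.p6), run 5′ to 3′ along the gene's strand from 250 bases before to 50 after an annotated start, and carry in capitals each GATA word on either strand, which is AGATAA, its variant AGATAG, or one of these with T as the first letter (TGATAA and its variant TGATAG). Sox6 is shown at the third of its 6 start sites (chr7:115995037-115995336, minus strand), Gfi1b at its single start site (chr2:28621933-28622232, minus strand) and Cbfa2t3 at the first of 2 (chr8:122699060-122699359, minus strand).
Sox6: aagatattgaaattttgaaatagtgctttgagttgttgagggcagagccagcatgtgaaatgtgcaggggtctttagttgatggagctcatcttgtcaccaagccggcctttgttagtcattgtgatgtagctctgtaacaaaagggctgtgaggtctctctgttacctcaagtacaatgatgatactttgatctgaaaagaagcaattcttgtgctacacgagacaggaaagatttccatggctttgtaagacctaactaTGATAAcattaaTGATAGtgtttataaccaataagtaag
Gfi1b: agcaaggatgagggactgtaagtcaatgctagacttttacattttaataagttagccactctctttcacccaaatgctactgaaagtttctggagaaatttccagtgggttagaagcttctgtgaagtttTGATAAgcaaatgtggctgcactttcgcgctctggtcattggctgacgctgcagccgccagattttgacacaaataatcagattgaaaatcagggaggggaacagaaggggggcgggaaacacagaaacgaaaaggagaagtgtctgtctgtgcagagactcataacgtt
Cbfa2t3: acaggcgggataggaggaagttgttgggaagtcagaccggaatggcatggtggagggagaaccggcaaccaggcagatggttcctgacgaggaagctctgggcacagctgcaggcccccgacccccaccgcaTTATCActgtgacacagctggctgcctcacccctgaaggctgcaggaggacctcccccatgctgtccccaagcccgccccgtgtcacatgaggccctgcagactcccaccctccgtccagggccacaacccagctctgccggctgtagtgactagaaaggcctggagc
The Sox6 window held 2 GATA words, the Gfi1b window 1 and the Cbfa2t3 window 1, the last read on the opposite strand. Of the windows not shown, Sox6 start sites 1, 2, 5 and 6 and Cbfa2t3 start site 2 held 0 GATA words, and Sox6 start site 4 held 1. A GATA word was present in 29.8% of all 32851 promoters of this length, so these matches are descriptions of the letters and not evidence of binding. Of the other words searched on both strands, TGACCA (a BCL11A word) was in the Gfi1b window and in 13.6% of all promoters. The KLF1 words CCACACCC and CCACGCCC (8.58% of all promoters) and the GFI1B word AATCAC (10.4%) were in none of the 3 windows shown, while Sox6 start site 4 held 1 KLF1 word. RefSeq promoters were searched for 9 of the 10 genes, with 16 start sites, and Mbd2 was left out of the search. Gene counts do not tell which start site was used.

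Among the DNA-binding repressors, Bcl11a (ENSMUSG00000000861, chromosome 11, 24078056 to 24174123, plus strand, GRCm38) encodes a zinc finger protein known for silencing embryonic and fetal globin genes. Its lowest, median and highest single-cell values were 30, 150 and 460 CPM in CFU-E cells, against 20, 220 and 610 CPM in erythroid-like BFU-E cells. In granulocyte-monocyte-like cells they were 0, 140 and 840 CPM. The 3 ranges overlapped almost fully, and 89 of 89 CFU-E, 55 of 55 erythroid-like and 36 of 37 granulocyte-monocyte-like BFU-E cells had a count. Pooled, Bcl11a reached 161 CPM (153 to 170) in CFU-E cells and 232 CPM (223 to 242) on the BFU-E plate, a log2 fold of −0.53 that lay next to the median of all genes and changed sign with the scaling (0.05 for TMM, 0.10 for median of ratios). Erythroid-like and granulocyte-monocyte-like BFU-E cells had 239 CPM (227 to 253) and 222 CPM (207 to 238), a ratio of 1.08 (0.986 to 1.18). The 3 lymphoid-marker cells of the CFU-E plate also held Bcl11a, at 50, 310 and 300 CPM. Bcl11a was thus the gene of the 10 found in the most cells at this depth.

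Sox6 (ENSMUSG00000051910, chromosome 7, 115470872 to 116038796, minus strand) encodes an HMG-box protein that represses the embryonic beta-like globin gene Hbb-y in mouse definitive red cells. Its lowest, median and highest values were 0, 30 and 270 CPM in CFU-E cells and 0, 0 and 60 CPM in erythroid-like BFU-E cells. Most CFU-E cells had counts and nearly all BFU-E cells had none, so the groups overlapped mainly at 0. A count was present in 70 of 89 CFU-E cells (78.7%, 68.7 to 86.6%) and in 4 of 55 erythroid-like BFU-E cells (7.27%, 2.02 to 17.6%). One of 37 granulocyte-monocyte-like cells had one (2.70%, 0.0684 to 14.2%), and the share in erythroid-like cells lay within the interval of that share.

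Pooled Sox6 levels were 45.3 CPM (40.97 to 49.9) in CFU-E cells, 1.96 CPM (1.16 to 3.09) on the BFU-E plate and 2.55 CPM (1.39 to 4.27) in its erythroid-like cells. The ratio of CFU-E to erythroid-like BFU-E cells was 17.8 (10.5 to 32.8), and the log2 fold over the whole plate was 3.97, between 2.85 and 4.73 over 16 alternatives. Without thinning, 82 of 89 CFU-E and 6 of 55 erythroid-like cells had a Sox6 count (92.1% and 10.9%), with median depths of 1005516 and 1121648 counts per cell. Deeper counting therefore filled in most of the CFU-E cells at 0 and few of the BFU-E cells. The 4 erythroid-like BFU-E cells with a Sox6 count at 100000 counts ranked 28, 40, 46 and 52 of 55 by their mean erythroid marker level (1 is highest), so none was among the most erythroid cells of its group.

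Within the CFU-E plate, Sox6 was higher in cells with more erythroid marker RNA. The Spearman correlation of Sox6 with the mean log2(CPM + 1) of the 18 erythroid markers was 0.622 over 89 cells of 1 plate and lane, and 0.590 over 86 cells without the 3 lymphoid-marker cells. With the number of genes detected per cell it was −0.189. Among 5577 genes with a count in at least 50% of CFU-E cells, the nearest to Sox6 were Hba-a1 (0.576), an adult alpha-globin gene, Slc4a1 (0.562), the red cell anion exchanger band 3, and Ift140 (0.548). The same 3 genes led over the 86 cells, at 0.543, 0.540 and 0.516. No other gene of the 10 correlated with the erythroid markers beyond 0.225 in size by this measure on the full CFU-E plate. Hba-a1 and Slc4a1 are themselves among the 18 markers, so these values share genes.

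**Figure D2:**
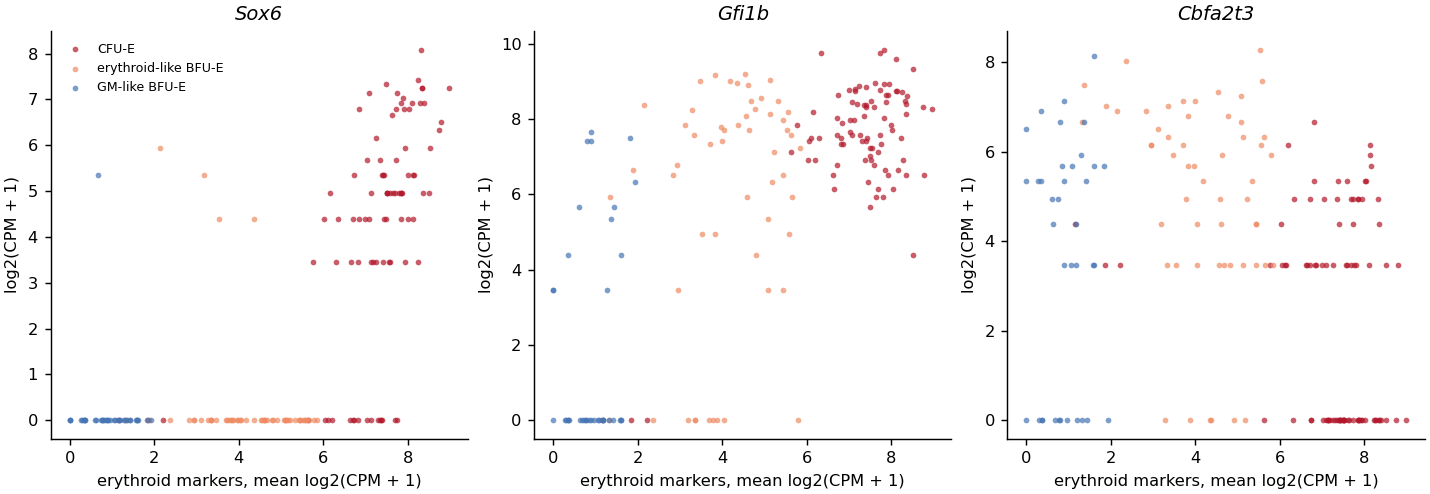
Each point is 1 cell, with the mean log2(CPM + 1) of 18 erythroid markers on the horizontal axis and log2(CPM + 1) of Sox6, Gfi1b or Cbfa2t3 on the vertical axis. Sox6 has counts almost only among CFU-E cells and increases with the markers there (Spearman 0.622, 89 cells); the 3 CFU-E cells at 0 for Gfi1b are the lymphoid-marker cells at the low end of the marker axis.

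Sox5, the SoxD paralog closest in kind to Sox6, showed the opposite distribution. It stood at 0.449 CPM (0.123 to 1.15) in CFU-E cells and 9.45 CPM (7.06 to 12.4) in erythroid-like BFU-E cells, with counts in 3 of 89 and 16 of 55 cells. Of the CFU-E cells, 70 had Sox6 alone, 3 had Sox5 alone, 0 had both and 16 had neither. Of the erythroid-like BFU-E cells, 2 had Sox6 alone, 14 had Sox5 alone, 2 had both and 37 had neither. Sox13, the remaining SoxD gene, had 0 counts in CFU-E cells, which allows up to 0.337 CPM, and 4.02 CPM on the BFU-E plate. Sox5 was below the level needed to enter the counts of 2-fold differences in these comparisons, and it was singled out among the listed paralogs after its values were seen.

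Zbtb7a (ENSMUSG00000035011, chromosome 10, 81135220 to 81152995, plus strand) encodes LRF, a zinc finger repressor of fetal globin in human cells. Its single-cell values ran from 0 to 70 CPM in CFU-E cells and from 0 to 80 CPM in erythroid-like BFU-E cells, with medians of 0 in both, so the ranges were alike and the groups differed in how many cells had a count. These were 43 of 89 CFU-E cells (48.3%) and 14 of 55 erythroid-like cells (25.5%), and without thinning 97.8% and 74.5%. The pooled level was 12.1 CPM (9.95 to 14.7) in CFU-E cells and 6.18 CPM (4.28 to 8.64) in erythroid-like cells, a ratio of 1.96 (1.32 to 2.98). This lay just inside the 2-fold limit, and the log2 fold of 0.87 became 1.39 under TMM. In granulocyte-monocyte-like cells the level was 6.22 CPM (3.94 to 9.33), and erythroid-like over granulocyte-monocyte-like cells gave a ratio of 0.994 (0.569 to 1.77).

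Gfi1b (ENSMUSG00000026815, chromosome 2, 28609450 to 28621982, minus strand) encodes a zinc finger repressor that recruits KDM1A and RCOR1 through its SNAG domain. Its lowest, median and highest values were 0, 200 and 920 CPM in CFU-E cells and 0, 150 and 590 CPM in erythroid-like BFU-E cells. In granulocyte-monocyte-like BFU-E cells they were 0, 0 and 200 CPM. Erythroid-like cells thus overlapped widely with CFU-E cells, while most granulocyte-monocyte-like cells were at 0. The 3 CFU-E cells at 0 were the 3 lymphoid-marker cells, and all 86 others had a count, from 20 to 920 CPM.

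Pooled Gfi1b was 262 CPM (252 to 273) in CFU-E cells, 182 CPM (170 to 193) in erythroid-like and 27.3 CPM (22.2 to 33.2) in granulocyte-monocyte-like BFU-E cells. Over the whole BFU-E plate (120 CPM) the CFU-E ratio was 2.19 (2.04 to 2.36), and over its erythroid-like cells it was 1.44 (1.34 to 1.56), so the larger value moved with the granulocyte-monocyte-like cells of that plate. Erythroid-like cells were 6.65-fold (5.42 to 8.25) above granulocyte-monocyte-like cells, which made Gfi1b the single gene of 9 measured that was at least 2-fold higher there, and 0 were lower. The background of that comparison was 8.33% higher and 13% lower of 9941 genes. On the BFU-E plate the genes nearest to Gfi1b over 92 cells were Gata1 (0.542), the master erythroid transcription factor, Slc41a3 (0.522) and Car2 (0.521), a carbonic anhydrase; the cells share 1 plate and lane and fall into the 2 clusters. On the CFU-E plate the genes nearest to Gfi1b over 89 cells were others, Usp24 (0.493), Ssh1 (0.389) and BC055324 (0.386). None of these is among the 18 erythroid markers. Within the erythroid-like cells the correlation of Gfi1b with the erythroid markers was 0.185, a weak value in sparse counts. The paralog Gfi1, a myeloid and lymphoid repressor, had 0 counts in CFU-E and in erythroid-like cells, which allows up to 0.337 and 0.545 CPM, and 2.43 CPM (1.11 to 4.62) in granulocyte-monocyte-like cells.

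Of the partners that GFI1B recruits, Kdm1a (ENSMUSG00000036940, chromosome 4, 136550540 to 136602723, minus strand) encodes the histone demethylase LSD1. Single cells ran from 0 to 160 CPM in CFU-E with a median of 10, and from 0 to 310 CPM in erythroid-like BFU-E with a median of 20. The groups overlapped, with the BFU-E cells reaching higher. The pooled level was 20.6 CPM (17.7 to 23.8) in CFU-E cells, 45.98 CPM (41.7 to 50.6) on the BFU-E plate and 38 CPM (33.02 to 43.5) in its erythroid-like cells. Kdm1a was 2.24-fold lower (1.88 to 2.67) in CFU-E cells than on the BFU-E plate and 1.85-fold lower (1.51 to 2.27) than in erythroid-like cells. Its log2 fold of −1.12 over the plate became −0.57 under TMM, and granulocyte-monocyte-like cells held the highest level, 57.8 CPM (50.4 to 66.1).

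Rcor1 (ENSMUSG00000037896, chromosome 12, 111039351 to 111115901, plus strand) encodes the scaffold CoREST, which holds LSD1 and the histone deacetylases together. At equal total counts it differed least of the 10 between CFU-E cells and the BFU-E plate, with 49.4 CPM (44.9 to 54.3) in CFU-E, 52.4 CPM (46.5 to 58.8) in erythroid-like and 57.3 CPM (49.8 to 65.5) in granulocyte-monocyte-like BFU-E cells. The median cell had 30 CPM in all 3 groups. The ratio of CFU-E to erythroid-like cells was 0.944 (0.812 to 1.10), and the log2 fold over the plate, −0.13, became 0.43 under TMM. Gfi1b, Rcor1 and Kdm1a, whose proteins act together, thus stood in different proportions in the plates, with log2 folds of 1.13, −0.13 and −1.12 at equal total counts and of 1.70, 0.43 and −0.57 under TMM. Against erythroid-like BFU-E cells alone their log2 folds at equal total counts were 0.53, −0.08 and −0.855, each inside 2-fold.

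Cbfa2t3 (ENSMUSG00000006362, chromosome 8, 122625141 to 122699109, minus strand) encodes ETO2, the corepressor of the SCL, LMO2, LDB1 and GATA1 complex that holds erythroid target genes in check in progenitors. Its lowest, median and highest values were 0, 10 and 100 CPM in CFU-E cells and 0, 50 and 310 CPM in erythroid-like BFU-E cells. The groups overlapped below 100 CPM, and every value above it came from the BFU-E plate. A count was present in 47 of 89 CFU-E (52.8%, 41.9 to 63.5%), 49 of 55 erythroid-like (89.1%, 77.8 to 95.9%) and 25 of 37 granulocyte-monocyte-like cells (67.6%, 50.2 to 81.99%).

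Pooled Cbfa2t3 was 13.1 CPM (10.9 to 15.8) in CFU-E, 67.5 CPM (60.8 to 74.7) in erythroid-like and 38.9 CPM (32.8 to 45.8) in granulocyte-monocyte-like BFU-E cells. It was 5.13-fold lower (4.16 to 6.37) in CFU-E than in erythroid-like cells, and 4.26-fold lower (3.48 to 5.25) than on the whole BFU-E plate. The log2 fold over the plate was −2.01, between −2.45 and −1.41 over 16 alternatives, and it kept its side of the 2-fold limit under both other scalings. The difference was larger against the erythroid-like cells than against the whole plate, as the granulocyte-monocyte-like cells held less of it. The paralog Cbfa2t2 (MTGR1) was also lower in CFU-E cells, at 30.6 CPM against 87.8 CPM in erythroid-like cells (log2 fold −1.49), while Runx1t1 (ETO) stood at 1.80 and 2.36 CPM.

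**Figure D3:**
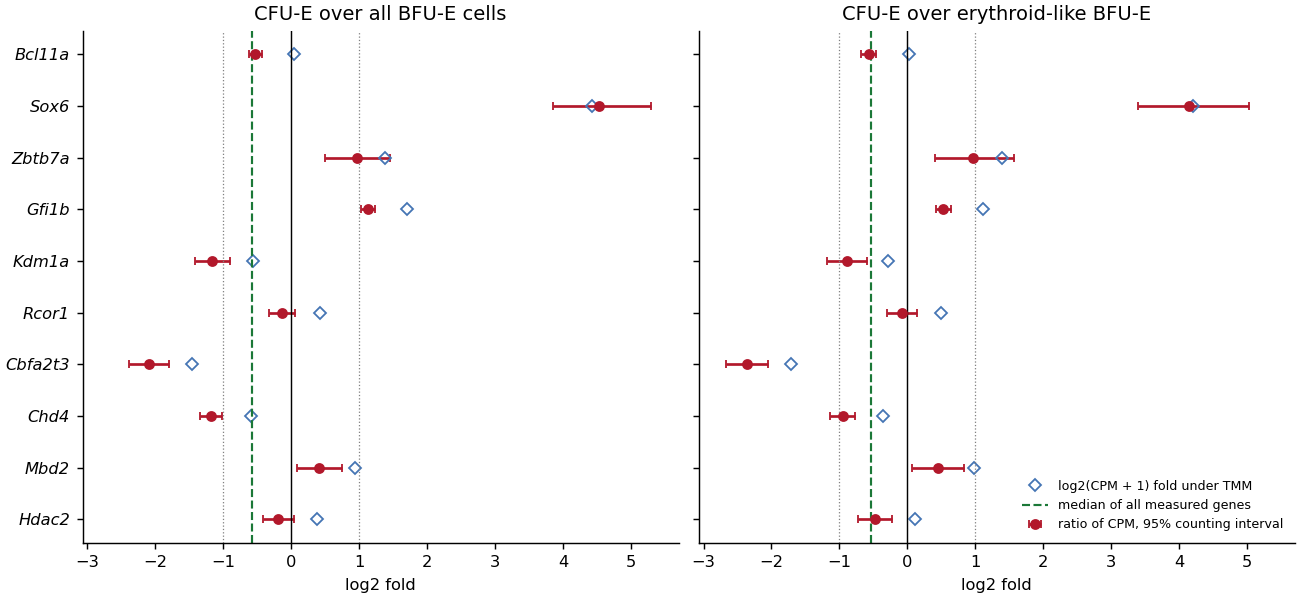
Red points are log2 ratios of CPM with 95% counting intervals, open diamonds are log2 folds of CPM + 1 after TMM scaling, the green dashed line is the median of all measured genes and dotted lines mark 2-fold. Sox6 lies far to the right and Cbfa2t3 to the left in both comparisons and on both scales, while Bcl11a, Rcor1 and Hdac2 lie left of 0 at equal total counts and right of 0 under TMM.

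Of the NuRD members, Chd4 (ENSMUSG00000063870, chromosome 6, 125095981 to 125130591, plus strand) encodes the remodelling ATPase. It had a count in 84 of 89 CFU-E and 54 of 55 erythroid-like BFU-E cells, with lowest, median and highest values of 0, 40 and 190 CPM and of 0, 80 and 390 CPM. The ranges overlapped, and the median CFU-E cell was below the lower quartile of erythroid-like cells, 50 CPM. Pooled, it had 48.7 CPM (44.2 to 53.5) in CFU-E, 94.2 CPM (86.2 to 103) in erythroid-like and 134 CPM (123 to 147) in granulocyte-monocyte-like cells. The log2 fold over the plate was −1.16, and −0.60 under TMM, where it no longer passed 2-fold.

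Mbd2 (ENSMUSG00000024513) encodes a reader of methylated CpG that joins NuRD to methylated promoters. At equal total counts it was slightly higher in CFU-E cells, at 20.6 CPM (17.7 to 23.8), against 15.1 CPM (12.02 to 18.7) in erythroid-like BFU-E cells, with counts in 62.9% and 43.6% of cells. The ratio was 1.36 (1.05 to 1.79), and the log2 fold of 0.42 lay between 0.06 and 1.16 over 21 alternatives. Hdac2 (ENSMUSG00000019777, chromosome 10, 36974544 to 37001889, plus strand), the deacetylase shared by NuRD and CoREST, had 33.5 CPM (29.8 to 37.5) in CFU-E and 46.5 CPM (41.02 to 52.6) in erythroid-like cells, a ratio of 0.719 (0.607 to 0.853). Its log2 fold of −0.46 turned to 0.11 under TMM, and granulocyte-monocyte-like cells had the lowest level, 25.7 CPM (20.8 to 31.4).

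Per length of merged exons, which allows levels to be compared between genes, Gfi1b was highest of the 10 in CFU-E cells at 143 CPM per kb, followed by Bcl11a at 12.2 CPM per kb. Rcor1, Hdac2, Mbd2 and Chd4 followed with 8.70, 7.48, 6.40 and 6.07 CPM per kb. The lowest were Kdm1a (3.97), Sox6 (3.05), Zbtb7a (1.78) and Cbfa2t3 (1.57 CPM per kb). In erythroid-like BFU-E cells Gfi1b (99.2 CPM per kb) and Bcl11a (18.2 CPM per kb) led as well, but Cbfa2t3 stood sixth with 8.06 CPM per kb and Sox6 last with 0.172 CPM per kb. In granulocyte-monocyte-like cells Bcl11a and Chd4 led with 16.9 and 16.7 CPM per kb, and Gfi1b followed closely with 14.9 CPM per kb. With the longest transcript in place of merged exons Bcl11a was higher, 26.9 CPM per kb in CFU-E cells, and Gfi1b still led there with 144 CPM per kb. The order of other genes depended on this choice. In granulocyte-monocyte-like cells Bcl11a (37.1), Chd4 (20.06) and Kdm1a (19.1) then stood above Gfi1b (14.98 CPM per kb). In CFU-E cells Mbd2 (10.53) and Hdac2 (10.3) stood above Rcor1 (8.70), and in erythroid-like cells Kdm1a (12.55) stood above Cbfa2t3 (8.82 CPM per kb).

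**Figure D4:**
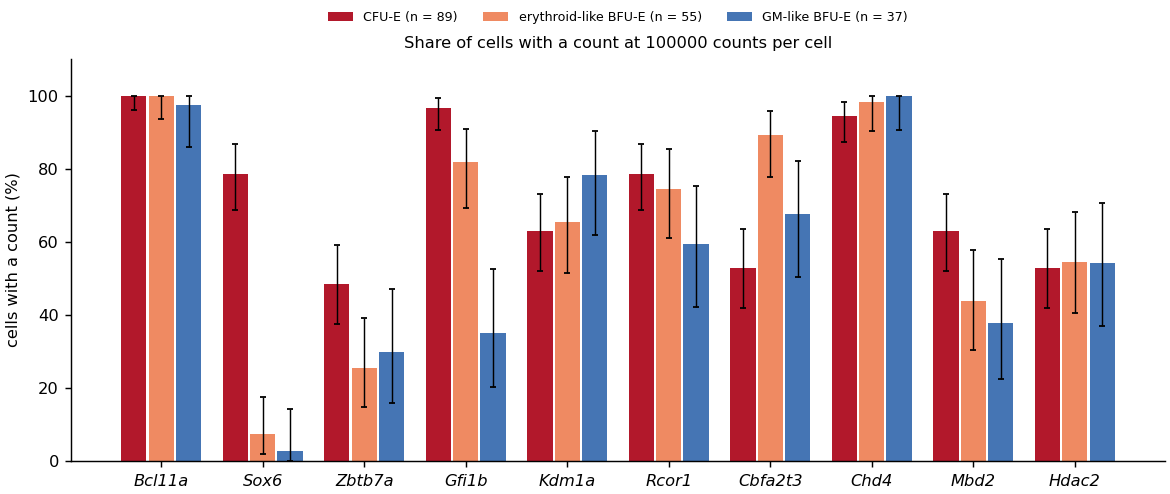
Bars give the share of cells with at least 1 count of each gene at 100000 counts per cell (0 to 100%), and error bars are exact 95% Clopper-Pearson intervals. Sox6 reaches 78.7% in CFU-E and 7.27% in erythroid-like BFU-E cells, Gfi1b steps down over CFU-E, erythroid-like and granulocyte-monocyte-like cells, and Cbfa2t3 is highest in erythroid-like cells at 89.1%.

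The median cell held counts of 7 of the 10 genes among CFU-E, 6 among erythroid-like and 6 among granulocyte-monocyte-like BFU-E cells. All 10 were found together in 2 CFU-E cells and 1 erythroid-like BFU-E cell. Within the CFU-E plate, correlations between pairs of the 10 with counts in enough cells lay between −0.247 and 0.266 over 36 pairs and 89 cells, and within erythroid-like cells between −0.272 and 0.342 over 21 pairs and 55 cells. Such values are weak in sparse counts and are given as a description.

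The partners of the 10 genes were read from 7 lists of known complexes, regulators and paralogs with 90 genes, 70 of them measured against the BFU-E plate. In CFU-E cells 6 were at least 2-fold higher and 18 at least 2-fold lower, beside 6.10% and 32.5% of all genes, and their median log2 fold of −0.54 lay next to that of all genes, −0.57. Under TMM the counts were 11 higher and 8 lower, beside 14.6% and 17.7% of all genes. In their median the partners therefore lay with the whole table.

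In NuRD, 1 of 10 measured partners was at least 2-fold lower in CFU-E cells and 0 were higher. Under TMM 0 were lower. The lower one at equal total counts was Gatad2b, a zinc finger subunit, with 26.6 CPM in CFU-E and 74.9 CPM on the BFU-E plate (log2 fold −1.46). The histone-binding subunit Rbbp7 and the subunit Mta2 were abundant in all cells, at 613 and 504 CPM in CFU-E and 776 and 471 CPM in BFU-E cells. The deacetylase Hdac1, at 238 and 274 CPM, exceeded its paralog Hdac2 per length, with 69.2 against 7.48 CPM per kb in CFU-E cells. In LSD1-CoREST, 0 of 8 measured partners were higher and 3 lower in CFU-E cells, near the 32.5% of all genes, and 2 were lower under TMM. Among them were Phf21a (BHC80, a histone reader), with 1.80 CPM in CFU-E and 17.2 CPM on the BFU-E plate, and Zmym3, with 9.66 CPM in CFU-E and 46.6 CPM on the BFU-E plate. Their log2 folds were −2.70 and −2.16.

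In the SCL, LMO2, LDB1 and ETO2 list, 2 of 11 measured partners were higher and 2 lower in CFU-E cells. Gata1 (441 CPM in CFU-E, 194 CPM on the BFU-E plate) and the E protein gene Tcf3 (63.7 and 30.4 CPM) were higher. Against erythroid-like cells their log2 folds were 0.45 and 0.64, inside 2-fold at equal total counts. Under TMM and median-of-ratios scaling, 2 of 11 partners were higher against erythroid-like cells, beside 14.7% and 16.5% of all genes. The ETO2-binding corepressor Irf2bp2 (11.1 and 34.5 CPM) and Cbfa2t2 were lower, with log2 folds of −1.55 and −1.54, and of −1.56 and −1.49 against erythroid-like cells. The core genes Tal1, Ldb1 and Lmo2 were within 2-fold of the BFU-E plate, with log2 folds of −0.29, −0.16 and −0.06. The share of lower partners did not exceed that of all genes (32.5% and 29.9%), and under TMM 1 partner and under median-of-ratios scaling 0 were lower in either comparison.

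In the NCoR and SIN3 list, 0 of 15 measured partners were higher and 6 lower in CFU-E cells, among them Tbl1xr1 (log2 fold −1.66) and Sap130 (−1.51). This is near the 32.5% of all genes, and under TMM and median-of-ratios scaling 1 of 14 was higher and 1 lower. Of 20 other globin-switch regulators, 1 was higher and 6 lower, near the 6.10% and 32.5% of all genes. Under both other scalings 4 of 21 were higher and 4 lower. Of all genes, 14.6% were higher and 17.7% lower under TMM, and 15.8% and 16.7% under median-of-ratios scaling. Klf1, which activates the adult beta-globin gene and Bcl11a, had 444 CPM in CFU-E, 109 CPM on the BFU-E plate and 180 CPM in its erythroid-like cells. Myb, a progenitor transcription factor whose loss raises fetal globin in human cells, had 28.99 CPM in CFU-E, 225 CPM on the plate and 303 CPM in erythroid-like cells. Hmga2 (4.83, 108 and 23.1 CPM in the same order) and the histone demethylase gene Kdm5b (9.44, 116 and 105.1 CPM) were lower as well, with log2 folds of −4.22 and −3.49 over the plate. Hmga2 moved with the granulocyte-monocyte-like cells, which held 233 CPM.

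**Figure D5:**
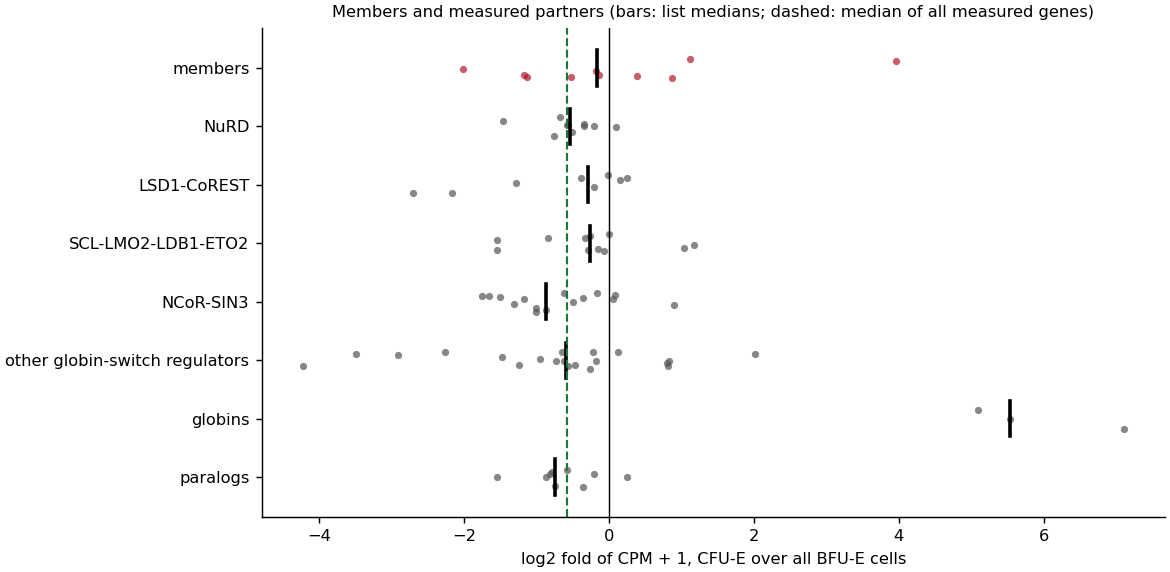
Each point is a measured gene, with the log2 fold of CPM + 1 for CFU-E over all BFU-E cells on the horizontal axis and 1 row per list; bars are list medians and the dashed line is the median of all measured genes (−0.57). Of the corepressor lists, NuRD has its median next to the dashed line (−0.54). The medians of LSD1-CoREST (−0.29) and SCL-LMO2-LDB1-ETO2 (−0.26) lie to its right and that of NCoR-SIN3 (−0.86) to its left. The 3 measured globins lie far to the right, and Sox6 is the member furthest right at 3.97.

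Of the listed globins, the adult genes Hba-a1, Hbb-bt and Hbb-bs were higher in CFU-E cells, at 495, 136 and 123 CPM, against 3.45, 0.545 and 4.18 CPM in erythroid-like BFU-E cells. The embryonic genes Hba-x and Hbb-y, and the beta-like gene Hbb-bh2, had 0 counts in every group, which allows up to 0.337 CPM in CFU-E and 0.545 CPM in erythroid-like cells. The embryonic gene Hbb-bh1 had 1 count in 1 CFU-E cell. Reads of near-identical globin copies may be split or dropped, so levels of single globin genes are uncertain. RNA of Hba-x, Hbb-y and Hbb-bh2 was thus not detectable at this depth in CFU-E or BFU-E cells.

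Among the other paralogs, Bcl11b and Zbtb7c had 0 counts in all groups, with the limits given for the embryonic globins. Kdm1b (LSD2) stood at 20.9 CPM in CFU-E and 38.7 CPM in erythroid-like cells, and Rcor3 at 25.96 and 29.6 CPM, while Rcor2 had 0 counts in CFU-E and 1.64 CPM in erythroid-like cells. Hdac3 (146 and 178 CPM) and Hdac8 (22.6 and 38.9 CPM) were within 2-fold. Mbd1 (18.9 and 27.8 CPM) and Mbd3 (15.8 and 29.5 CPM) were too. Chd3 stood at 1.35 and 3.09 CPM, Chd5 at 0 and 0.727 CPM, and Zbtb7b at 0.562 and 0.182 CPM. Of the 19 listed paralogs, 9 were measured against erythroid-like cells, 0 were higher and 2 lower, among them Cbfa2t2, beside 29.9% of all genes. Under TMM and median-of-ratios scaling 0 of 9 paralogs were lower.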

How the data were processed

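The authors deposited whole-number counts of reads per gene and cell with no normalization, and per the submitters' processing notes used STAR 2.4, featureCounts and GRCm38. Annotation release, strand setting and the handling of multimapping reads were not given in the sources used here, so reads of antisense or overlapping genes cannot be told apart from a gene's own. Of the cells' columns, 191 matched a cell by name; the 1 column left over was not used. The 95 index pairs found on both plates ran in different lanes. Wells received single cells by sorting, so doublets were not called.

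Kept cells were thinned without replacement to 100000 counts (seed 1) and summed per group to 8900000 (CFU-E) and 9200000 (BFU-E) counts. CPM carry exact Poisson intervals, ratios exact conditional binomial intervals and shares Clopper-Pearson intervals. A floor of 3 counts over a group limits values of 0. Clusters of BFU-E cells came from Ward's method, using 10 components of 1000 variable genes, and 2 clusters had the highest silhouette (0.312); the highest on the CFU-E plate, 0.141, was under the minimum of 0.2. Calls of 2-fold used log2(CPM + 1) and a mean of at least 5 CPM. Coordinates, exon lengths and types are from the GENCODE annotation of GRCm38. The naming rule covered the 10 genes, the 3 partners per list with the largest fold and every paralog. It also covered the 3 genes nearest to a member by Spearman correlation on each plate. Of these nearest genes, only those of Sox6 and Gfi1b were reported, and those of the other members were left out. Other partners were named after their values were seen, and some further genes covered by the rule were left unreported. The genes and lists were chosen with earlier results of these data known. Scripts were tested on simulated data. Python 3.11.15, numpy 2.4.6, scipy 1.17.1, scikit-learn 1.9.0, R 4.3.3 and edgeR 4.0.16 (TMM factors only) were used. Alternatives covered the cell filter, thinning, scaling, pseudocount, level filter, cell subsets and clustering.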

Additional observations from a re-analysis of the deposited data

How the results depend on the processing

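No paired analysis was possible because the shared label numbers count single cells and link no CFU-E cell to a BFU-E cell. No test was made. Each cell type is 1 sample, so variation among animals, plates and lanes cannot be estimated, and low genes such as Zbtb7a and Sox6 in BFU-E cells rest on few counts. Of the alternatives, 121 counts of 2-fold genes stayed within 1.5 times and 25 did not, and 0 calls changed sign; the cause was not tested. Members lower in CFU-E than on the BFU-E plate numbered 1 under TMM, under median-of-ratios and with library sizes without the 50 most abundant genes. Of all genes, 17.7%, 16.7% and 26.7% were lower there, in that order. Members higher numbered 1 in cells with odd label numbers, beside 6.28% of all genes. Against erythroid-like cells, members lower numbered 2 with at least 500000 counts per cell, at 20000 counts, with raw sums and in even-numbered cells, and 3 with another seed. Of all genes, 30% to 33.7% were lower in these settings. Members higher in the same comparison numbered 2 with mean CPM and without the 50 most abundant genes, 3 under TMM and in even-numbered cells, and 4 under median-of-ratios. Of all genes, 5.72%, 8.28%, 14.7%, 7.39% and 16.5% were higher there, in that order. Members higher in erythroid-like than in granulocyte-monocyte-like cells numbered 2 with raw sums and another seed, and 3 in odd-numbered and in even-numbered cells, where 3 were lower, against 1 lower at 20000 counts. Of all genes, 8.51%, 8.27%, 10.6% and 13.7% were higher there, in that order. In even-numbered cells 16% of all genes were lower, and at 20000 counts 13.9%. Partners higher in CFU-E cells than on the BFU-E plate numbered 11 under TMM, median-of-ratios and without the 50 most abundant genes, beside 14.6%, 15.8% and 8.54% of all genes. Partners lower numbered 8 under TMM and 7 under median-of-ratios, beside 17.7% and 16.7%. Other clustering settings kept 83 to 91 of 92 BFU-E cells in their cluster. Leaving out the 3 lymphoid-marker CFU-E cells, or 4 erythroid-like cells with at least 5 granulocyte-monocyte markers, was chosen after seeing the data and left the member counts within 1.5 times.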
